A study of Mus musculus with 3 samples.

Results

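The genes described here are 8 effector genes of cytotoxic lymphocytes, Gzma, Gzmb, Prf1, Nkg7, Klrd1, Cd160, Cxcr6 and Fasl, out of 32285 genes counted in mouse colon. They were chosen by symbol, and all 8 were present once in the gene table. Their transcripts were counted in single cells caught in droplets, where a cell barcode marks the droplet and a random tag marks every captured transcript, so that tags (UMIs, unique molecular identifiers) can be counted. The mice were germ-free. One group received phosphate-buffered saline (PBS), one was colonized with a strain labelled BT WT and one with a strain labelled BT mutant. The labels give the tissue as colon. What BT stands for, which gene was mutated, how long the mice were colonized, their age, sex and strain, and the number of animals per library are not in the labels. Sets of 3 values below are in the order PBS, BT WT, BT mutant. Each group had 1 library, so no test between groups was possible, and every interval below is an exact 95% interval that covers counting error only. A difference between 2 such libraries cannot be told apart from one between animals or preparations.

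Cytotoxic lymphocytes kill a target cell by releasing granules that hold perforin, which opens the target's membrane, and granzymes, proteases that enter through it. Gzma and Gzmb encode granzymes A and B, Prf1 perforin and Nkg7 a membrane protein of the granules. Klrd1 encodes CD94, which pairs with NKG2 proteins to read the class I molecule Qa-1, and Cd160 encodes a receptor that binds HVEM and class I molecules. Cxcr6 is the receptor for the chemokine CXCL16, and Fasl encodes the ligand that triggers the death receptor Fas. In the gut such genes are known from intraepithelial T cells, many of which carry CD8 as a pair of alpha chains without the beta chain, and from natural killer (NK) and innate lymphoid cells (ILC).

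Promoter windows of 5 members are shown because these genes carry the main results below: Gzma and Gzmb for the few cells that held them, Cd160 and Cxcr6 for their difference between libraries, and Nkg7 as the member found in the most T cells. The windows come from RefSeq on GRCm38.p6 and run from 250 bases before to 50 bases after the annotated start. Each is printed from 5′ to 3′ on the strand of the gene. Capitals mark TGTGGT (a core letter string of RUNX sites), GGTGTG (of T-box sites) and TGANTCA (of AP-1 sites), or the reverse complement of each.
Gzma, chr13:113100932-113101231, minus strand: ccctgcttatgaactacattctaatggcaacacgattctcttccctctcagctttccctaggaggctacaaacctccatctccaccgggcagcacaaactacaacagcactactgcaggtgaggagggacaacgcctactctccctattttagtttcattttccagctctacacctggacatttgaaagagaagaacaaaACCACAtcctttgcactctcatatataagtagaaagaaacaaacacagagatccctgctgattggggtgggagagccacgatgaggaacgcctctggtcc
Gzmb, chr14:56262285-56262584, minus strand: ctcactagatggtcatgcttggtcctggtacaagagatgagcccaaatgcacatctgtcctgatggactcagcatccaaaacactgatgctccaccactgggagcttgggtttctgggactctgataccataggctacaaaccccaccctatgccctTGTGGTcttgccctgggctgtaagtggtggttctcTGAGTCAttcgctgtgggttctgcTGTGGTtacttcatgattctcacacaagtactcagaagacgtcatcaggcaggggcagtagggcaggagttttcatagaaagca
Nkg7, chr7:43436888-43437187, plus strand: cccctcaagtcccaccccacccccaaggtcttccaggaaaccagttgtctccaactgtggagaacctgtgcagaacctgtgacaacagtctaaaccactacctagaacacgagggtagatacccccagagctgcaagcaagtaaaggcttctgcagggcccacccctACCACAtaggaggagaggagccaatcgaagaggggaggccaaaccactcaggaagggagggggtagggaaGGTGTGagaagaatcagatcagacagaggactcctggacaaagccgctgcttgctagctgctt
Cd160, chr3:96829302-96829601, minus strand: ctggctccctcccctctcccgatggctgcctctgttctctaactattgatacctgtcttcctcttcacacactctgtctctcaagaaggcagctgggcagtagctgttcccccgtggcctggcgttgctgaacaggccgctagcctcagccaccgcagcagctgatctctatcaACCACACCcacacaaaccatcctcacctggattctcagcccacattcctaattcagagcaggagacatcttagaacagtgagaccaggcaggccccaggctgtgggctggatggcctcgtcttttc
Cxcr6, chr9:123806227-123806526, plus strand: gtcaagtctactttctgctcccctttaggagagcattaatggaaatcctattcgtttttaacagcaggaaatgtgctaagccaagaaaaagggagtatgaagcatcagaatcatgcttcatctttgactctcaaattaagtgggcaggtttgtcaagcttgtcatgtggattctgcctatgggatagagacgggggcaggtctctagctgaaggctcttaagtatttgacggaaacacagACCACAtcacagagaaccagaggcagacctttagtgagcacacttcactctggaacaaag
A window was present for 7 of the 8 members, all but Klrd1, and Cd160 had a pair of them. TGTGGT or its reverse ACCACA was in at least 1 window of 6 of those 7 genes, against 16.8% of 32851 windows of all genes, and GGTGTG or CACACC was in 3 of 7, against 19.0%. TGANTCA was in 1 of 7 (Gzmb), against 7.81%. In the Cd160 window shown, ACCACA and CACACC overlap in 1 run of capitals. These are letter matches, which show neither binding nor activity.

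The 3 libraries held 42003444, 55436776 and 54943483 UMIs, and 3198, 7070 and 6138 barcodes were kept, with medians of 3355 to 3845 UMIs per cell. The median share of mitochondrial UMIs per cell was 5.77%, 12.5% and 11.2%. Lymphocytes were gated on marker genes that do not include the members. Cd8a-positive T cells numbered 61, 72 and 36 and other T cells 134, 335 and 132. The gate first set for NK or innate lymphoid cells held 4, 18 and 17 cells, under the minimum of 20. In it Gzma had 0, 118 and 0 UMIs. A wider gate of Cd3-negative cells with at least 2 UMIs of NK or innate lymphoid markers, chosen after the data were seen, gave 16, 56 and 51, and these are the NK/ILC cells below. Marker genes matched the class names in part: Cd8b1 was in 50 of 61, 60 of 72 and 25 of 36 Cd8a-positive T cells and Cd4 in 0, 1 and 0, whereas other T cells, defined by the absence of a Cd8a UMI, had Cd8b1 in 26, 54 and 22 and Cd4 in 36, 66 and 35. Foxp3 was in 0 Cd8a-positive T cells and in 8, 8 and 9 other T cells. NK/ILC cells had Ncr1 in 5, 31 and 25 and Il7r in 9, 37 and 40, so the gate holds NK-marked and innate lymphoid-marked cells together. Cd8a-positive cells were 31.3% (24.8 to 38.3), 17.7% (14.1 to 21.8) and 21.4% (15.5 to 28.4) of T cells. Libraries shared 6 to 13 barcodes in pairs, 0 of them in lymphocytes.

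The 8 genes lay mostly in lymphocytes. Of 1185, 2180 and 1154 member UMIs in all barcodes of the 3 libraries, 87.1%, 87.2% and 83.9% were in T cells or Cd3-negative NK/ILC cells. The lowest share was that of Prf1, at 59.0%, 78.9% and 68.8%. B cells, which do not use these genes as killers, served as background, at median depths of 3493, 2842 and 2762.5 UMIs against 5929, 4974.5 and 4445 in Cd8a-positive T cells. At least 1 member was found in 0.925%, 1.09% and 0.654% of them, and no single member in more than 0.615%. Each share of a whole T or NK/ILC class named below was above the share of B cells for the same gene. This does not extend to parts of a class. Epithelial-gated cells held at least 1 member in 2.36%, 0.864% and 1.06% of cells. In these, 3, 4 and 8 cells had 5 or more member UMIs, and 2, 4 and 7 of those also had at least 2 T marker UMIs.

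**Figure D1:**
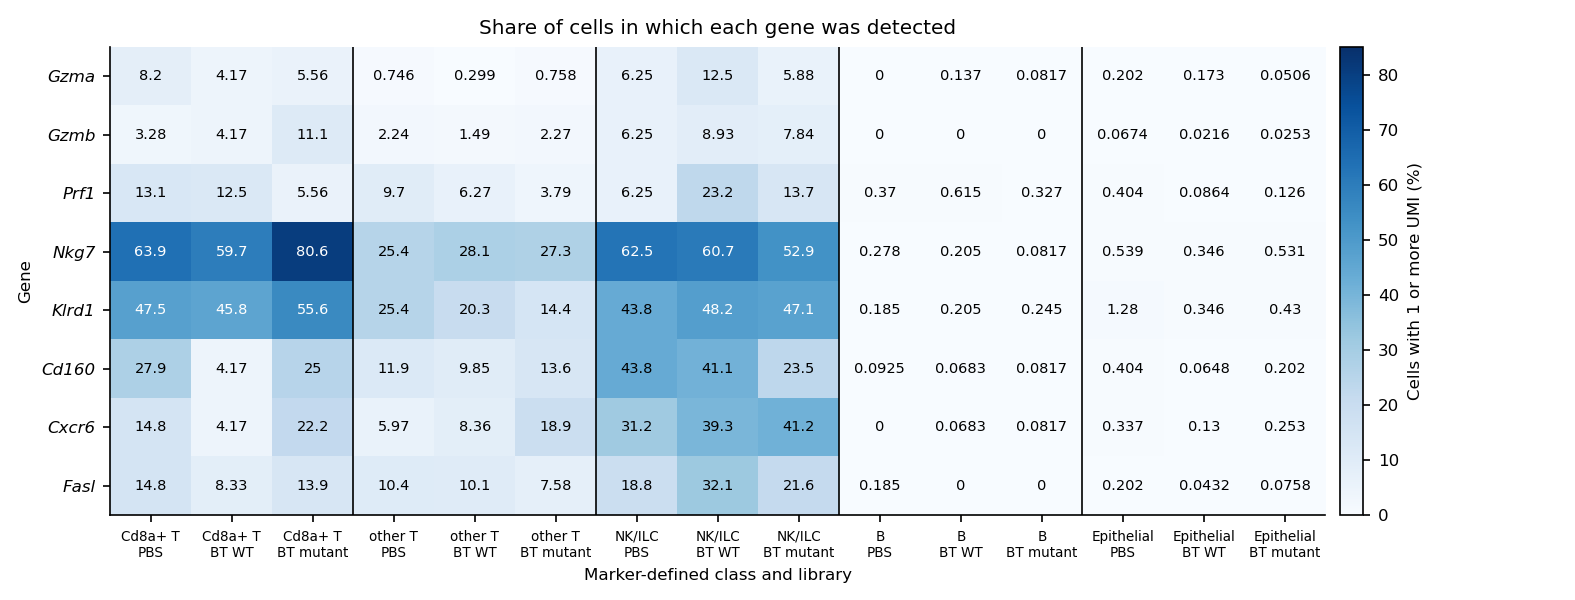
Share of cells (%, colour and printed value) with at least 1 UMI of each gene (vertical axis) in 5 marker-defined classes of each library (horizontal axis). Nkg7 and Klrd1 were found in 14.4% to 80.6% of cells in the 3 lymphocyte classes, Gzma in at most 12.5%, and no member in more than 0.615% of B cells.

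Gzma, the tryptase-like granzyme (chr13:113093825-113100981, minus strand), was carried by very few cells that each held many copies. In Cd8a-positive T cells the PBS library held 284 UMIs, or 608 CPM (539 to 683; UMIs of the gene scaled to 1000000 UMIs of the class), in 5 of 61 cells. BT WT held 251 UMIs (687 CPM, 605 to 777) in 3 of 72 cells and BT mutant 59 UMIs (368 CPM, 280 to 475) in 2 of 36 cells. The richest single cells held 104, 140 and 34 UMIs, so each class value rested on a handful of cells. In other T cells 1 cell of each library had Gzma, with 1, 175 and 18 UMIs, and those cells set class levels of 1.25, 128 and 35.9 CPM. Cd3-negative NK/ILC cells had 19 UMIs in 1 of 16 cells (PBS), 146 in 7 of 56 (BT WT; 584 CPM, 493 to 687) and 107 in 3 of 51 (BT mutant; 456 CPM, 374 to 551).

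Across all classes 22 cells had 10 or more Gzma UMIs, and together they held 1144. Of these cells 9 were Cd8a-positive T cells with 16 to 140 UMIs each. All 9 had a UMI of a gamma-delta receptor constant gene, 8 of Trdc, 9 of Ccl5 and 6 of Gzmb, whereas 1 had Cd8b1. Trac, a constant gene of the alpha-beta receptor, was also in 4 of these 9 cells, so the receptor transcripts were mixed in part. Another 9 were Cd3-negative NK/ILC cells with 12 to 77 UMIs. All 9 of those had Ncr1, the NK receptor NKp46, and Fcer1g. Among them 7 had Prf1 and 0 had Cxcr6. The remaining cells were 2 other T cells and 2 epithelial-gated ones. The BT WT cell among the other T cells, with 175 Gzma, 31 Gzmb and 19 Klrd1 UMIs, had 0 UMIs of Cd3e, Trac and Trdc and 22 of Tyrobp, 19 of Fcer1g and 2 of Ncr1. It also held 2 UMIs of the gamma-delta receptor constant gene Tcrg-C4, and its gate required a UMI of Cd3d, Cd3e or Cd3g. Its markers were thus mixed, and its T label is uncertain. The cell sets the Gzma and Gzmb values of other T cells in BT WT and the ratios made from them. All 22 had Nkg7 and Ccl5, and 0 had Cd4. Of the 22 Gzma-rich cells, most were thus either Cd8a-positive cells with gamma-delta receptor transcripts or Cd3-negative cells with Ncr1.

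Gzmb (chr14:56258838-56262260, minus strand), the granzyme that cuts caspases, was found in 2 of 61, 3 of 72 and 4 of 36 Cd8a-positive T cells. Its sums were 20, 20 and 19 UMIs, or 42.8 (26.1 to 66.1), 54.7 (33.4 to 84.5) and 119 CPM (71.4 to 185). The PBS UMIs were 11 and 9 in the 2 cells, and 15 of the 20 in BT WT were in 1 cell, so the Gzmb ratios below rest on few cells. Other T cells had 10, 41 and 3 UMIs in 3, 5 and 3 cells, and 31 of the 41 in BT WT were in 1 cell. In NK/ILC cells there were 1, 11 and 10 UMIs. Gzmb lies in a cluster of similar granzyme genes, and how the authors' counting split reads between them is not given in the sources used here, so its level is uncertain.

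**Figure D2:**
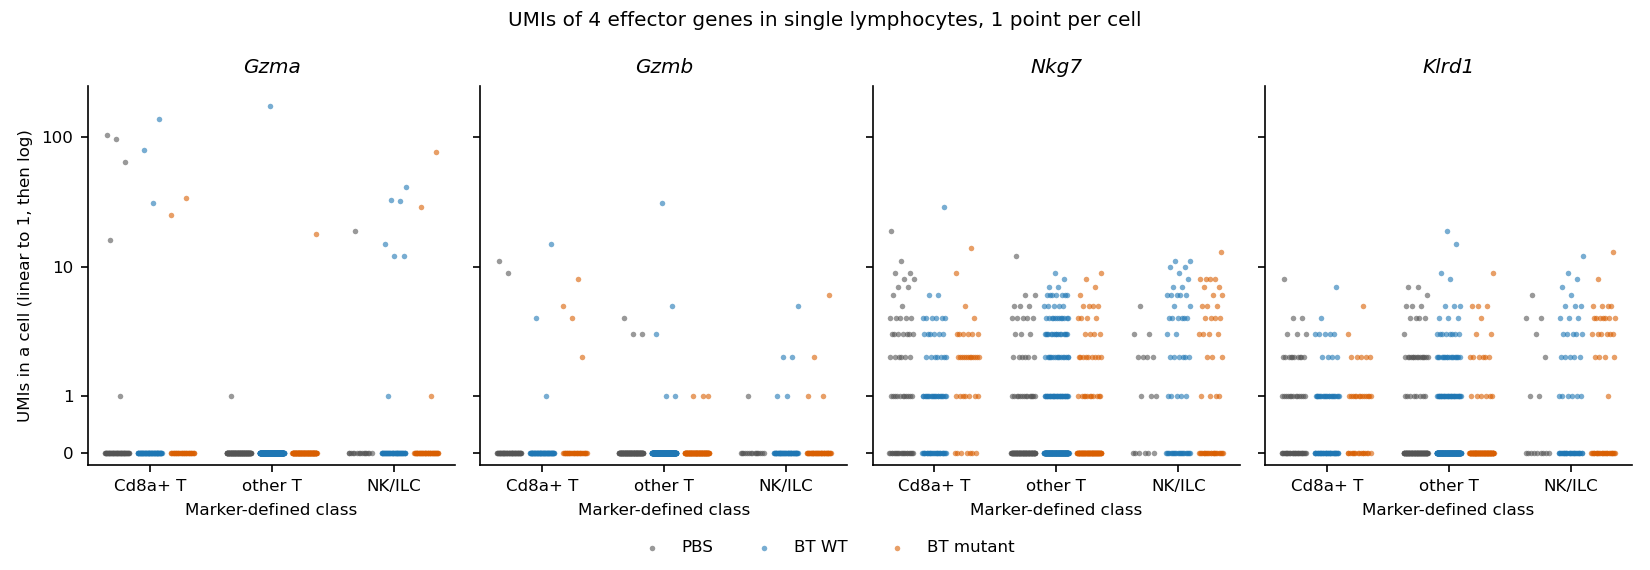
UMIs of Gzma, Gzmb, Nkg7 and Klrd1 in single cells (vertical axis, linear to 1 and then log) by marker-defined class (horizontal axis) and library (colour), 1 point per cell. Gzma was at 0 in nearly every cell and reached 175 UMIs in 1 cell, whereas Nkg7 and Klrd1 were spread over many cells at low counts.

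Prf1 (chr10:61297833-61304680, plus strand), the pore former, was sparse in T cells. Cd8a-positive T cells held 8, 10 and 3 UMIs in 8, 9 and 2 cells, and other T cells 13, 27 and 5 in 13, 21 and 5 cells. Cd3-negative NK/ILC cells held 34 UMIs in 13 of 56 cells of BT WT, or 136 CPM (94.2 to 190), and 14 in 7 of 51 of BT mutant, or 59.7 CPM (32.6 to 100.1). In BT WT this interval lay above those of both T classes (13.1 to 50.3 and 13.1 to 28.8 CPM). In BT mutant the intervals of NK/ILC cells and Cd8a-positive T cells (3.86 to 54.7 CPM) overlapped.

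Nkg7 (chr7:43437073-43438249, plus strand) was the member found in the largest share of Cd8a-positive T cells. They held it in 39 of 61 (63.9%), 43 of 72 (59.7%) and 29 of 36 cells (80.6%), at 327 (278 to 384), 323 (267 to 387) and 506 CPM (402 to 628). Other T cells had it in 25.4%, 28.1% and 27.3% of cells, at 117, 191 and 213 CPM. In all 3 libraries the Cd8a-positive interval lay above that of other T cells (94.8 to 144, 168 to 216 and 175 to 258 CPM). NK/ILC cells had it in 10 of 16, 34 of 56 and 27 of 51 cells, at 294, 640 (545 to 747) and 528 CPM (440 to 630.0). Their level lay above Cd8a-positive T cells in BT WT and overlapped with them in BT mutant and PBS.

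Klrd1 (chr6:129591782-129598775, plus strand) was spread in the same broad way. Cd8a-positive T cells had it in 29, 33 and 20 cells (47.5%, 45.8% and 55.6%), at 124 (94.3 to 160), 153 (116 to 199) and 194 CPM (131 to 275). Other T cells had 115 (92.6 to 141), 125 (107 to 145) and 104 CPM (77.4 to 136), which overlapped with the Cd8a-positive interval in each library. The highest level was that of NK/ILC cells in BT WT and BT mutant, at 400 (325 to 487) and 409 CPM (331 to 500), above the intervals of both T classes.

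Cd160 (chr3:96798763-96829351, minus strand) was the member that, with Cxcr6, differed most between libraries in Cd8a-positive T cells. PBS had 56 UMIs in 17 of 61 cells (120 CPM, 90.5 to 156) and BT mutant 18 in 9 of 36 (112 CPM, 66.6 to 178). BT WT had 4 UMIs in 3 of 72 cells (10.9 CPM, 2.98 to 28.0), so BT WT stood below both, with no overlap of the intervals. Other T cells did not show this: they had 58.7 (43.1 to 78.0), 55.8 (44.0 to 69.8) and 75.7 CPM (53.6 to 104) in 16, 33 and 18 cells. Those of NK/ILC cells were 174 (92.5 to 297), 200 (148 to 264) and 115 CPM (75.8 to 167).

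Cxcr6 (chr9:123806475-123811760, plus strand) had the same order in Cd8a-positive T cells. The PBS value was 101 CPM (73.9 to 134) from 47 UMIs in 9 of 61 cells, and 34 of these UMIs were in 2 cells. Without the richest cell, which held 18, the PBS value was 63.6 CPM. The BT mutant value was 93.6 CPM (52.4 to 154) from 15 UMIs in 8 of 36. BT WT held 3 UMIs in 3 of 72 cells (8.21 CPM, 1.69 to 24). In other T cells the order was another one: 33.7 (22.2 to 49.0), 47.0 (36.2 to 60) and 118 CPM (89.5 to 152), with 8, 28 and 25 cells (5.97%, 8.36% and 18.9%). NK/ILC cells stood at 120 (55.0 to 228), 196 (145 to 259) and 187 CPM (136 to 252), with overlapping intervals. Cd160 overlaps Pdzk1 and Cxcr6 overlaps Fyco1 on the opposite strand. Whether the authors' counting used the strand is not given in the sources used here.

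Fasl (chr1:161780689-161788495, minus strand) was sparse in T cells. Cd8a-positive T cells had 11, 7 and 7 UMIs in 9, 6 and 5 cells, and other T cells 18, 42 and 14 in 14, 34 and 10 cells. Its levels in Cd8a-positive T cells were 23.5 (11.8 to 42.1), 19.2 (7.70 to 39.5) and 43.7 CPM (17.6 to 90.0), which overlapped with each other and with those of other T cells. NK/ILC cells held 6, 28 and 17 UMIs, or 80.2, 112 (74.4 to 162) and 72.4 CPM (42.2 to 116).

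**Figure D3:**
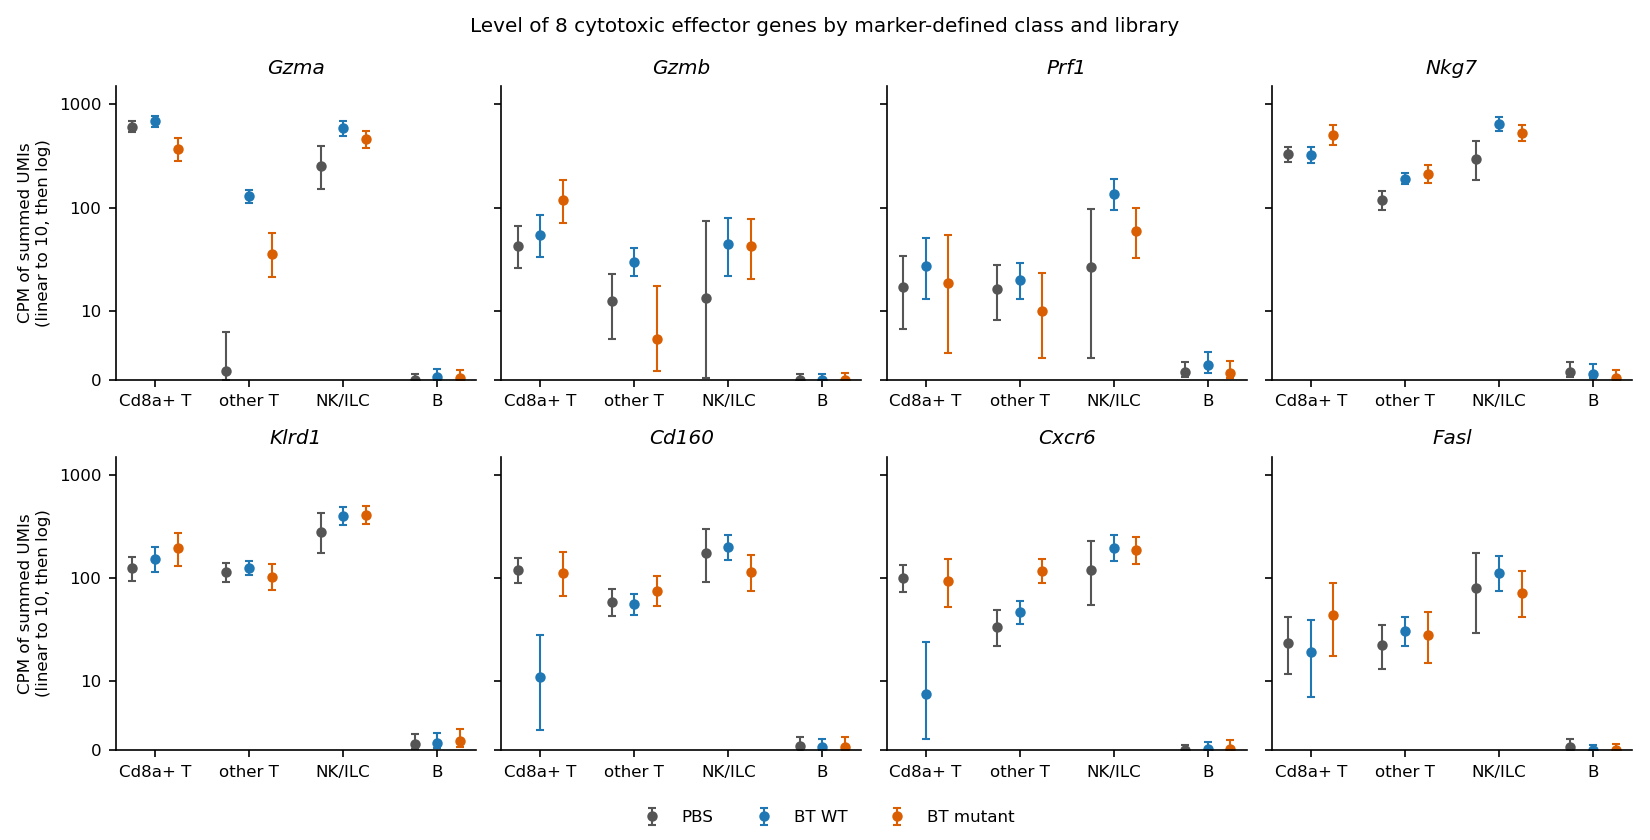
Level of each gene in CPM of summed UMIs (vertical axis, linear to 10 and then log) in 4 marker-defined classes (horizontal axis) and 3 libraries (colour), with exact Poisson 95% intervals. Cd160 and Cxcr6 in Cd8a-positive T cells stood at 10.9 and 8.21 CPM in BT WT, below both other libraries, and B cells were near 0 for all 8 genes.

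Set against other T cells of the same library, Cd8a-positive T cells had more of the granzymes and Nkg7 in PBS and BT mutant. A gene was counted as higher or lower at a CPM ratio of at least 2 with at least 20 UMIs over both sums. In PBS 5 of the 8 members were higher and 0 lower, where 4.52% of 6129 genes were higher and 6.89% lower. Gzma was 487-fold higher (86.7 to 19305.4, against 1 UMI), Gzmb 3.43-fold (1.53 to 8.21), Nkg7 2.79-fold (2.15 to 3.65), Cd160 2.04-fold (1.36 to 3.08) and Cxcr6 2.99-fold (1.82 to 4.99). The 20 Gzmb UMIs of Cd8a-positive T cells in PBS were in 2 cells. In BT mutant 3 of 7 members with enough UMIs were higher and 0 lower, where 2.37% of 3719 genes were higher and 12.4% lower. These were Gzma (10.3-fold, 5.97 to 18.5), Gzmb (19.8-fold, 5.84 to 104.7, against 3 UMIs) and Nkg7 (2.37-fold, 1.75 to 3.20). With the Cd8a-positive class widened to cells with Cd8a or Cd8b1, the Cd160 log2 ratio in PBS moved from 0.92 to 0.24.

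BT WT differed in that 1 member was higher and 2 were lower, where 2.09% of 6449 genes were higher and 10.1% lower. Gzma was 5.35-fold higher (4.39 to 6.52). Cd160 was 5.10-fold lower in Cd8a-positive than in other T cells (1.91 to 19.2) and Cxcr6 5.72-fold lower (1.87 to 28.5). The other T value of Gzma came from 1 cell, and without the cell richest in members in each class the Gzma log2 ratio was 5.02 in place of 2.33, an alternative chosen after the data were seen. In clusters made without the members, the Cd160 log2 ratio was -0.38 in place of -1.65. The median log2 ratio over the 8 members, on log2(CPM + 10), was 1.08 in PBS, 0.30 in BT WT and 0.68 in BT mutant, beside 0.01, -0.12 and -0.15 over all genes with enough UMIs.

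Cd3-negative NK/ILC cells had more of most members than other T cells in BT WT and BT mutant, where the class held enough cells. These values are of the wider gate, which admits cells with T receptor UMIs. In BT mutant the first gate held 0 UMIs of Gzma, Gzmb and Prf1. The UMIs of these genes in the wider gate thus came from cells with more than 1 T marker UMI. In BT WT 7 of 8 members were higher and 0 lower, where 13.5% of 6458 genes were higher and 8.19% lower. Prf1 was 6.86-fold higher (4.02 to 11.8), Cxcr6 4.17-fold (2.82 to 6.15), Klrd1 3.21-fold (2.48 to 4.13) and Fasl 3.63-fold (2.17 to 6.0). Gzmb, at 1.46-fold (0.678 to 2.90), was not counted as higher. Of the 41 Gzmb UMIs of other T cells in BT WT, 31 were in the 1 cell whose T label is uncertain, so this ratio rests on that cell. In BT mutant 4 of 6 members with enough UMIs were higher and 0 lower, where 10.8% of 4375 genes were higher and 6.1% lower. They were Gzma (12.7-fold, 7.67 to 22.3), Klrd1 (3.95-fold, 2.79 to 5.65), Fasl (2.60-fold, 1.20 to 5.69) and Nkg7 (2.48-fold, 1.90 to 3.24). Cd160 and Cxcr6, at 1.52-fold (0.892 to 2.56) and 1.60-fold (1.05 to 2.40), were not. The member medians were 1.68 and 1.49, beside 0.15 over all genes in both.

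Other genes of the killing pathway were also measured, from lists chosen with results of these data known. Of 22 genes of granule and killing machinery, 14 had enough UMIs in BT WT, and 7 were higher and 0 lower in NK/ILC than in other T cells, with a median of 0.49, where 13.5% of all genes were higher and 8.19% lower. Ifng, the cytokine interferon gamma, was 9.32-fold higher there (5.87 to 15). Of 12 NK-type receptors and adaptors all had enough UMIs, and 10 were higher (median 2.39). All 10 naive and recirculating T genes were lower (median -2.53). Both lists lie close to how the class was gated, on NK or innate lymphoid markers without Cd3, and are no independent evidence. In Cd8a-positive T cells the machinery list had 4 of 12 higher in PBS (Serpinb6b, Stx11, Cst7 and Ifng), 1 higher and 4 lower of 14 in BT WT, and 1 of 7 higher in BT mutant. Cst7, an inhibitor of granule cathepsins, was higher in all 3 libraries, at 2.86-, 2.94- and 3.13-fold. Helper and regulatory T genes were lower in 4 of 7, 4 of 5 and 5 of 5 genes. Among all genes 4.52%, 2.09% and 2.37% were higher and 6.89%, 10.1% and 12.4% lower in these comparisons of Cd8a-positive with other T cells.

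Within Cd8a-positive T cells the members differed in where they lay. Nkg7 and Klrd1 were found in many cells both with and without Cd8b1, the CD8 beta chain: Nkg7 in 88 of 135 against 23 of 34 cells and Klrd1 in 60 of 135 against 22 of 34, over the 3 libraries. Gzma and Gzmb lay in the cells without Cd8b1, in 8 of 34 each, against 2 and 1 of 135. Cd160 (17 of 34 against 12 of 135) and Fasl (12 of 34 against 8 of 135) were also found in a larger share of the cells without Cd8b1. Cxcr6 was in 7 of 34 against 13 of 135 cells and Prf1 in 3 of 34 against 16 of 135. Cells without Cd8b1 were shallower in every library (medians of 4958, 3520 and 3457 UMIs against 6298, 5054 and 5048). A missing Cd8b1 UMI itself depends on depth, and the part of depth in this split was not tested. They also had Ccl5 (24 of 34 against 18 of 135) and Itgae, the integrin of intraepithelial cells (16 of 34 against 8 of 135).

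The 12 Cd8a-positive cells with Trdc, the delta chain of the gamma-delta receptor, held most members at once. Gzma was in 8 of 12 and Gzmb in 7 of 12, each against 2 of 157 cells without Trdc. Nkg7 was in 12, Cd160 in 9, Fasl in 8 and Cxcr6 in 7 of the 12, and all 12 had 2 or more members, against 71 of 157 of the rest. They came from all 3 libraries (5, 3 and 4 cells). In Trdc-positive cells without a Cd8a UMI, Gzma and Gzmb were in 1 of 51 each, while Nkg7 was in 30, Cd160 in 20 and Fasl in 15 of 51.

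Among other T cells with Cd4, 3 of 137 had 2 or more members, against 131 of 464 without Cd4. Fasl was in 11 of 137 against 47 of 464.

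**Figure D4:**
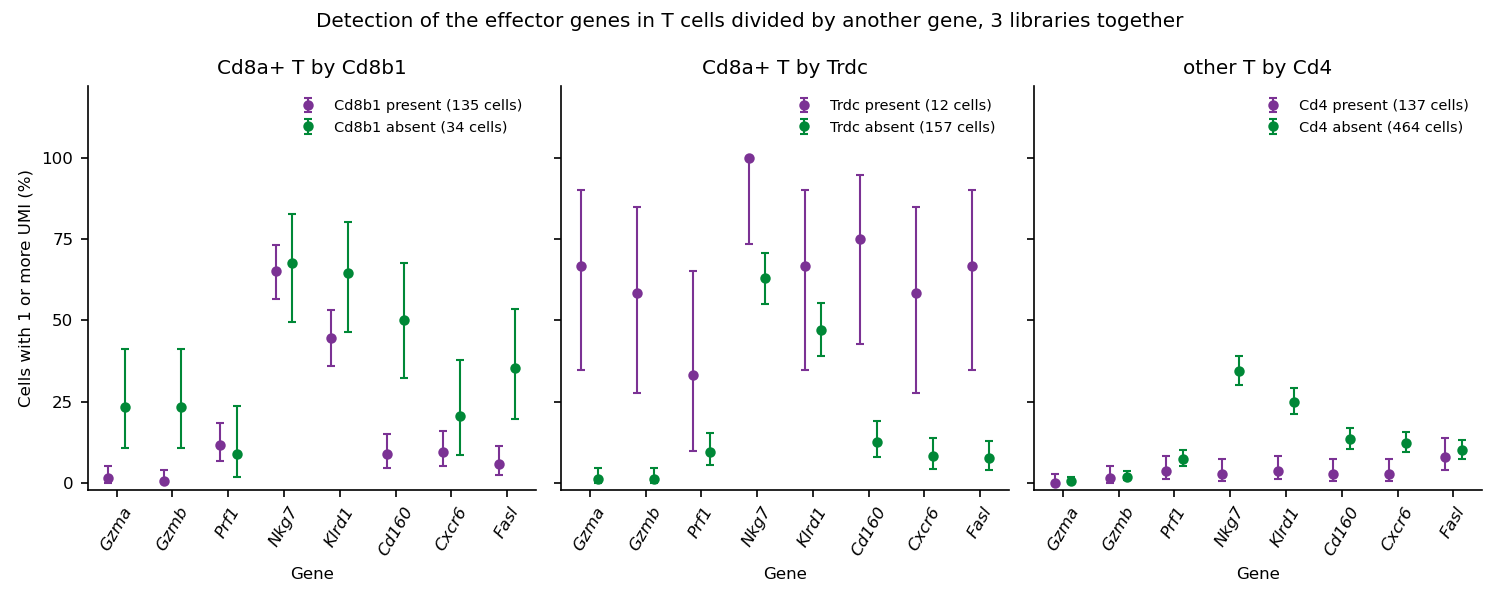
Share of T cells with at least 1 UMI (%, vertical axis, with exact binomial 95% intervals) for each gene (horizontal axis) in cells with and without a UMI of Cd8b1, Trdc or Cd4 (colours), 3 libraries together. Gzma and Gzmb were in 8 of 34 cells without Cd8b1 each, whereas Nkg7 was in 88 of 135 cells with Cd8b1 and 23 of 34 without.

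Cd3-negative NK/ILC cells also divided by Ncr1, which is itself one of the marker genes of that gate and was chosen for this split after the data were seen. Cells with Ncr1 numbered 61 over the 3 libraries and had Nkg7 in 58, Klrd1 in 47, Cd160 in 32, Fasl in 28, Prf1 in 18 and Gzma in 11. The 62 cells without Ncr1 had them in 13, 11, 10, 4, 3 and 0, where 0 cells with a UMI, at a limit of 3 counts, allows a share of up to 4.84%. At least 2 members were in 29 of 31 cells with and 7 of 25 without Ncr1 in BT WT, and in 25 of 25 and 3 of 26 in BT mutant. PBS did not show this split as clearly, with 4 of 5 and 7 of 11 cells. Cxcr6 went the other way, in 17 of 61 cells with Ncr1 and 31 of 62 without. Per library, Cxcr6 was at 93.5 CPM with and 304 CPM without Ncr1 in BT WT, and at 132 and 233 CPM in BT mutant. PBS had 36.1 CPM with and 170 CPM without Ncr1, from 1 and 8 UMIs. Median depths were close (4091 and 4012 UMIs in BT WT, 4065 and 3637 in BT mutant, 4811 and 4716 in PBS).

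Between libraries, the comparisons of BT WT with PBS, BT mutant with BT WT and BT mutant with PBS share libraries and are not independent of each other. In Cd8a-positive T cells of BT WT against PBS, 0 of 6 members with enough UMIs were higher, where 1.45% of 4429 genes were, and 2 were lower, where 12.5% were. Cd160 was 10.9-fold lower (4.05 to 41.6) and Cxcr6 12.3-fold lower (3.94 to 61.5), a ratio that rests largely on the 2 PBS cells that held 34 of its 47 UMIs. Without the richer of these the PBS level was 63.6 CPM, against 8.21 CPM in BT WT. Gzma, at a ratio of 1.13 (0.95 to 1.34), Nkg7, at 0.986 (0.769 to 1.26), and Klrd1, at 1.23 (0.840 to 1.81), had intervals that hold 1. In BT mutant against BT WT 2 of 5 were higher, where 4.36% of 2773 genes were, and 0 were lower, where 8.22% were. Cd160 was 10.3-fold higher (3.38 to 41.7) and Gzmb 2.17-fold (1.09 to 4.28). Of the 20 Gzmb UMIs in BT WT 15 were in 1 cell, and the interval treats UMIs of 1 cell as independent. Cxcr6 was 11.4-fold higher (3.23 to 61.5) on 18 UMIs, under the minimum, and was not counted. In BT mutant against PBS Cd160 and Cxcr6 stood at ratios of 0.937 (0.519 to 1.62) and 0.931 (0.483 to 1.69). Gzmb was higher there (2.77-fold, 1.40 to 5.47), as 1 of 6 members, with 0 lower, where 2.16% of 3710 genes were higher and 18.1% lower. The 20 Gzmb UMIs in PBS were in 2 cells.

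Cd160 in BT WT was also found in few of the Cd8a-positive T cells without Cd8b1, while the Cxcr6 counts there were too small to order the libraries. In cells without Cd8b1, Cd160 was in 7 of 11, 2 of 12 and 8 of 11, and Cxcr6 in 2, 1 and 4 of them. With Cd8b1, Cd160 was in 10 of 50, 1 of 60 and 1 of 25, so in these cells BT mutant was not close to PBS. Cells without Cd8b1 were 11 of 61, 12 of 72 and 11 of 36, and the part of this mix in the class values was not tested. Depth differed as well, with medians of 5929, 4974.5 and 4445 UMIs per cell. BT WT had the most cells and a deeper median than BT mutant. Taking cells from clusters made without the members moved the Cd160 log2 ratio of BT WT over PBS from -2.63 to -1.47 and that of BT mutant over BT WT from 2.55 to 1.16.

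In other T cells the difference lay in Cxcr6. Of 8 members 2 were higher and 0 lower in BT WT against PBS, where 2.52% of 7472 genes were higher and 7.83% lower. Both were granzymes and rested on 1 cell: without the cell richest in members in each class the log2 ratios of Gzma and Gzmb went from 3.62 and 0.83 to -0.17 and -0.12. In BT mutant against BT WT 1 of 8 was higher, where 4.6% of 6844 genes were, and 2, again Gzma and Gzmb, were lower, where 4.79% were. Cxcr6 was 2.5-fold higher (1.73 to 3.62). Against PBS it was 3.49-fold higher (2.18 to 5.72), as 1 of 5 members, with 0 lower, where 3.37% of 6199 genes were higher and 9.79% lower. Without those cells its log2 ratios were 1.28 and 1.66, against 1.16 and 1.55 with it.

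In Cd3-negative NK/ILC cells of BT mutant against BT WT, 0 of 8 members were higher, where 4.7% of 3360 genes were, and 1 was lower, where 5.42% were. This was Prf1, 2.28-fold lower (1.19 to 4.60). Cd160 was 1.74-fold lower (1.07 to 2.89) and Klrd1 had a ratio of 1.02 (0.765 to 1.37). A count of 1 in 8 is near the background of all genes.

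**Figure D5:**
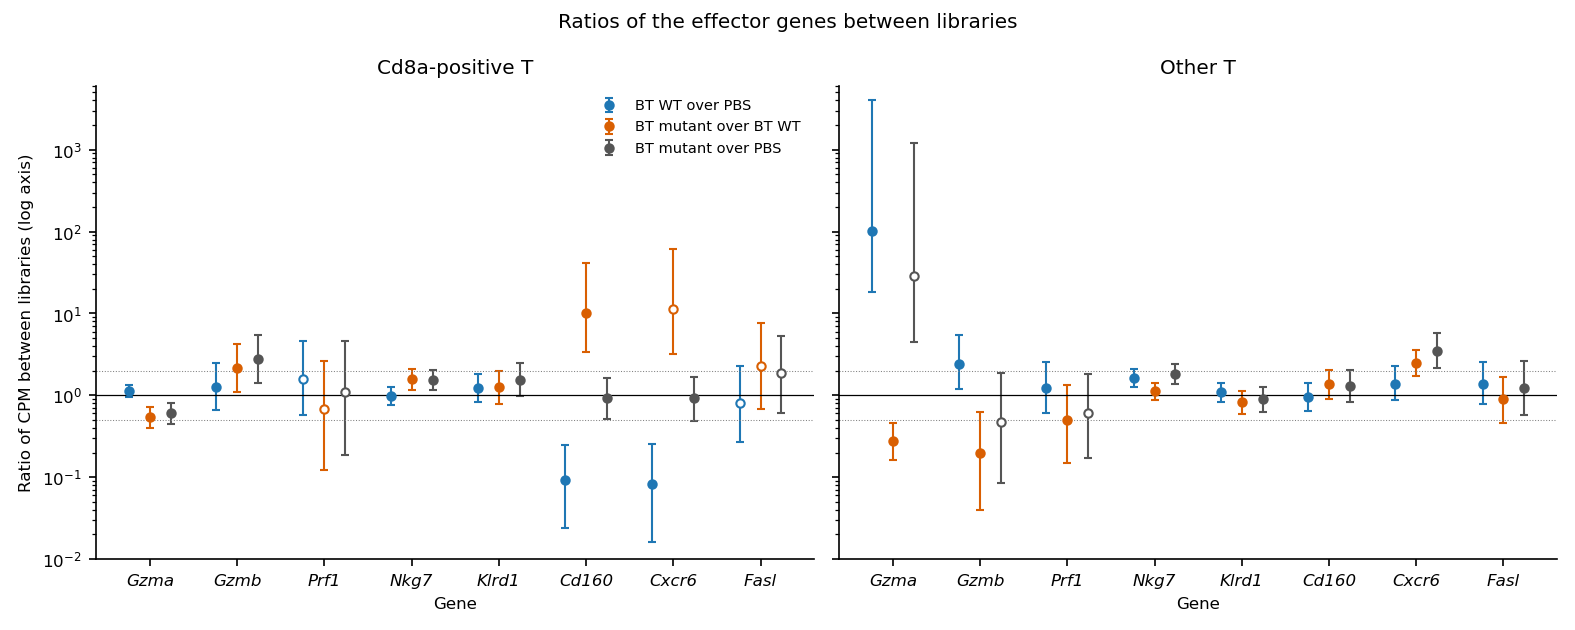
Ratio of CPM between libraries (vertical axis, log) for each gene (horizontal axis) in Cd8a-positive and other T cells, with exact conditional binomial 95% intervals. Colours give the pair of libraries, open points have under 20 UMIs over both sums, and dotted lines mark 2-fold. In Cd8a-positive T cells Cd160 and Cxcr6 stood 10.9- and 12.3-fold lower in BT WT than in PBS, and in other T cells Cxcr6 stood 3.49-fold higher in BT mutant than in PBS.

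The member medians between libraries were 0.08, 0.76 and 0.34 in Cd8a-positive T cells, for the 3 comparisons in the order above, beside -0.25, -0.02 and -0.25 over all genes. In other T cells they were 0.36, -0.18 and 0.27, beside -0.10, 0.05 and -0.06, and in NK/ILC cells -0.31, beside 0.00, for BT mutant over BT WT. The summed members of Cd8a-positive T cells came to 1363, 1284 and 1455 CPM.

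Companion genes of residence, killing and signalling were compared between libraries in the same way. In Cd8a-positive T cells of BT WT against PBS, 1 of 7 residence and homing genes with enough UMIs was lower (Itgae, at a ratio of 0.426, 0.176 to 0.934), and so were 4 of 10 machinery genes (Serpinb6b, Rab27a, Stx11 and Ifng) and 2 of 4 NK-type receptor genes (Fcer1g and Cd7), where 12.5% of all genes were lower. The share of 1 in 7 is near that background. In BT mutant against BT WT 4 of 7 residence and homing genes were higher: Itgae (4.82-fold, 2.08 to 12.1), Ccl3 (16.7-fold, 5.03 to 87.3, against 3 UMIs), Ccl4 (3.68-fold, 1.97 to 7.03) and Ccl5 (2.24-fold, 1.96 to 2.55), where 4.36% of all genes were higher. Ccl5, a chemokine stored with the granules of cytotoxic cells, stood at 2059, 1240 and 2772 CPM. Cells without Cd8b1, which more often held Itgae and Ccl5, were 11 of 36 in BT mutant and 12 of 72 in BT WT. The part of this mix in these ratios was not tested. In NK/ILC cells of BT mutant against BT WT, 3 of 12 machinery genes were lower, Ifng among them at a ratio of 0.362 (0.199 to 0.628), where 5.42% of all genes were lower.

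Cells with 2 or more members made up 32 of 61 (52.5%), 28 of 72 (38.9%) and 23 of 36 (63.9%) Cd8a-positive T cells. In other T cells they made up 23.9%, 21.5% and 22.7%, in Cd3-negative NK/ILC cells 68.8%, 64.3% and 54.9%, and in B cells they were 1 cell of each library. With each cell thinned to 1000 UMIs the Cd8a-positive values were 14.8%, 12.5% and 25.7%, and those of other T cells 8.33%, 7.81% and 8.53%. In Cd8a-positive T cells BT mutant had the highest value at both depths, and the 3 thinned intervals (6.98 to 26.2, 5.88 to 22.4 and 12.5 to 43.3) overlapped.

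The 5 genes most like the summed members over 18 sums of class and library, among 14956 genes, were Klk8 (Pearson's r 0.98), Dapl1 (0.98), Sla2 (0.98), Ctsw (0.98) and Cd8b1 (0.97). Cathepsin W (Ctsw) is a protease of cytotoxic cells and Sla2 an adaptor of antigen receptor signalling. The sums were of Cd8a-positive T, other T, B, epithelial, myeloid and stromal cells. NK/ILC cells, with summed members at 2312 and 1871 CPM in BT WT and BT mutant, were left out. Dapl1 was lower in NK/ILC than in other T cells of both these libraries, whereas Ctsw was higher in BT WT. The sums share libraries and depth, and both T classes set them apart from the rest, so these values describe which genes mark the same classes among those used.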

How the data were processed

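Colon cells of 3 libraries, 1 per group, were sequenced with the Chromium 3′ kit, per the labels' protocols. The deposited matrices hold UMI counts per gene and barcode, which the authors made with Cell Ranger 5.0.0, per the file headers, and with STAR and mm10, per the submitters' processing notes. For annotation release, cell-calling rule and strand setting, the sources used here give nothing.

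Barcodes with at least 300 genes and at most 25% mitochondrial UMIs were kept. Classes came from marker genes: at least 2 UMIs of 10 T genes, split by Cd8a, and at least 2 of 20 NK or innate lymphoid genes without Cd3 for the wider gate. UMIs were summed per class and library and given as CPM (UMIs scaled to 1000000 per class), with exact Poisson, binomial (Clopper-Pearson) and conditional binomial 95% intervals, which cover counting error only. Log2 ratios used CPM + 10. A ratio of at least 2 with at least 20 UMIs over both sums was counted as higher or lower, in classes of at least 20 cells. A count of 0 was read as up to 3 counts. With 1 library per group no test was made. The members and lists were chosen with earlier results of these data known. Named genes were the members, the class checks, known partners, the 5 genes most like the summed members and, from each list, the most abundant gene and those with the largest and smallest ratio. Other genes were named after their values were seen.

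Doublets were kept. Removing a fixed rate of the highest Scrublet scores was an alternative, since Scrublet's own threshold called 0, 3 and 103 cells. Other alternatives were other mitochondrial and gene limits, other gates, means of per-cell CPM, median-ratio scaling and thinning to 1000 UMIs. Clusters made without the members, and classes without their cell richest in members, were used as well. The pseudocount was 10 throughout. Scripts were tested on simulated data. Python packages were numpy 2.4.6, scipy 1.17.1, pandas 2.3.3, scanpy 1.11.5 and matplotlib 3.10.9.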

Additional observations from a re-analysis of the deposited data

How the results depend on the processing

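Over 142 alternatives, 141 of the member medians stayed within a band and 1 moved. The band ran from the median of the 8 lower counting bounds to that of the 8 upper ones, so it was wide. The moved value was BT mutant over BT WT in other T cells, at 0.52 with cells free of UMIs of any other compartment. The median for BT WT over PBS in Cd8a-positive T cells ranged from -0.71 to 0.35, above 0 in 5 of 12 alternatives. Its band ran from -0.72 to 0.64, so a change of sign still counted as staying. Cells with no UMI of another compartment gave Cd8a-positive shares of T cells of 15% (PBS) and 11% (BT WT). These shares rest on under 20 Cd8a-positive T cells in each library, and in PBS on under 20 other T cells as well. Counting Cd8a or Cd8b1 gave 44.6%, 31.0% and 34.5%, and thinning to 1000 UMIs 12.4%, 5.43% and 7.32%. Thinning gave shares with 2 or more members of 14.8%, 12.5% and 25.7% in Cd8a-positive T cells and 8.33%, 7.81% and 8.53% in other T cells. Of 399 alternatives for single members, 369 stayed, 24 moved and 6 reversed, all 6 for granzymes in other T cells. For BT WT over PBS, Gzma was -0.17 and Gzmb -0.12 (log2) without the cell richest in members, and Gzmb -0.52 after thinning. For BT mutant over BT WT, Gzma was 4.42 and Gzmb 0.64 with cells free of other compartments' UMIs, and Gzma 1.35 as a mean over cells. The cause was not tested, beyond the single cells that held these UMIs. Cd160 in Cd8a-positive T cells of BT WT over PBS stayed below 0 in 12 of 12 alternatives. Cells free of other compartments' UMIs were under 20 in a class of every Cd8a-positive and NK/ILC comparison. The same held for the comparisons of other T cells with PBS. That alternative gave no ratio in any of these. NK/ILC cells without any T marker UMI were also under 20, so that alternative gave no value for NK/ILC comparisons. No paired analysis was possible because each group has 1 library. Sparse counts limit Prf1, Fasl and Gzmb most.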

Other observations

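Klrd1 was also found outside T and NK/ILC cells. Cells gated as myeloid held 14, 38 and 11 Klrd1 UMIs in 4 of 72, 10 of 116 and 9 of 155 cells (order PBS, BT WT, BT mutant), and all 63 member UMIs in myeloid cells were Klrd1. Of the 23 cells with Klrd1, 1 had a T marker UMI, against 8 of the 320 without. Dendritic cell genes, chosen after the data were seen, were more frequent in them: Flt3 was in 13 of 23 against 20 of 320, Clec9a in 6 against 12, Xcr1 in 3 against 9 and Itgae in 8 against 11. The macrophage genes C1qa and Adgre1 were in 2 and 4 of 23, against 237 and 160 of 320. Csf1r, also a marker of the myeloid gate, was in 12 of 23 against 237 of 320. Siglech, a further dendritic cell gene, was in 3 of 23 against 34 of 320, so not all genes of the list separated these cells. In BT mutant Flt3 was in 2 of 9 against 8 of 146 and Itgae in 1 of 9 against 3 of 146. Cst3, a gene of myeloid cells at large, was in 23 of 23.

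Known partners of the members were measured as well. Cxcl16, the ligand of Cxcr6, stood in myeloid cells at 112 (86.9 to 143), 145 (120 to 173) and 55.9 CPM (41.9 to 73.2), so BT mutant stood below both with no overlap. NK/ILC cells had 0, 72.0 (42.7 to 114) and 21.3 CPM (6.92 to 49.7). Epithelial cells had 11.5, 21.7 and 12.6 CPM. H2-T23, which encodes the Qa-1 molecule read by CD94, was broad, at 255, 250 and 324 CPM in B cells and 194, 206 and 258 in epithelial cells. Klrc1, the NKG2A partner of CD94, was at 93.5, 188 and 136 CPM in NK/ILC cells. Fas, the receptor of Fasl, was at 26.4, 43.4 and 37.2 CPM in stromal cells. Tnfrsf14, which encodes HVEM, stood at 0.587, 1.53 and 0.685 CPM in epithelial cells.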
